A study of Mus musculus with 10 samples.

Results

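Cpa3, Mcpt4, Cma1, Tpsb2, Ms4a2, Fcer1a, Mcpt8, Siglecf, Prg2 and Ccr3 are genes of mast cells, basophils and eosinophils, and their mRNA was measured in mouse tumors of B16F10, a melanoma line. They were chosen by symbol, and all 10 were present among the 27919 genes of the table. The tumors overexpressed Ly86, which encodes the secreted protein MD-1, or carried the vector. Every mouse had received anti-PD-1 and anti-CTLA4, antibodies to inhibitory receptors of T cells, in 4 rounds, and groups without them were not analysed here. Tumors were snap-frozen. The strain, sex and age of the mice and the promoter driving Ly86 are not given in the sources used here. Poly(A) RNA of 7 tumors, 4 Ly86 and 3 Vector, gave 10 libraries. Ly86 tumor 1, Vector tumor 1 and Vector tumor 2 were each sampled as 2 pieces. Their log2 values were averaged, since pieces of a tumor are not separate replicates.

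Mast cells reside in skin and other connective tissue, often beside vessels, and store proteases, histamine and heparin in granules. Basophils and eosinophils circulate in blood and enter tissue in allergic and parasitic inflammation. Mast cells and basophils carry the high-affinity receptor for immunoglobulin E, whose engagement releases the granules, while eosinophils follow eotaxin chemokines through the receptor CCR3. In skin, mouse mast cells are of the connective tissue type, which express Mcpt4, Cma1, Tpsb2 and Cpa3.

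Levels are given in TPM, a length-adjusted share of the library's transcripts, and differences on the scale of log2(TPM + 1). Between 19304 and 21882 genes had a value above 0 in a library, and read depth is unknown because TPM does not retain it. Ly86 itself was at 49.2 to 81.9 TPM in the 5 libraries of Ly86 tumors and at 6.24 to 80.9 TPM in the 5 of Vector tumors, with the first piece of Vector tumor 2 at the top of the Vector range. The sum of 5 pigment cell genes was 13228 to 19282 TPM in Ly86 libraries and 9454 to 18300 TPM in Vector libraries. The first piece of Vector tumor 2 stood apart. It held the lowest pigment sum and the highest sums of leukocyte, macrophage, dermal fibroblast, endothelial and adipocyte markers.

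Of the 3 cell types, mast cells were the best measured. The 4 mast cell proteases had means over tumors of at least 1 TPM and entered the test, while the other 6 genes lay below that level and did not. Mcpt8, the basophil member, reached at most 0.66 TPM in any library. Prg2, which encodes the major basic protein of eosinophil granules, was listed at 0 in 9 of 10 libraries. The eosinophil peroxidase gene Epx and Prg3, Ear1 and Ear6 were looked for but had no values under these symbols, so their levels are unknown. Il5ra, the eosinophil's receptor for interleukin 5, reached at most 0.15 TPM, and the basophil protease gene Prss34 at most 0.29 TPM. The names basophil and eosinophil therefore rest on few transcripts in these tumors.

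The mast cell proteases varied together from library to library, without separating the groups. Mcpt4, a chymase of connective tissue mast cells, was at 17.7 and 13.9 TPM in the pieces of Ly86 tumor 1 and at 7.48, 7.14 and 17.8 TPM in Ly86 tumors 2, 3 and 4. It was at 0.43 and 3.37 TPM in the pieces of Vector tumor 1, 43.5 and 0 TPM in the pieces of Vector tumor 2, and 7.36 TPM in Vector tumor 3. The Vector libraries thus held both the highest value and the 3 lowest. Cma1, the gene of the chymase mMCP-5, was at 8.30 and 14.6 TPM in the pieces of Ly86 tumor 1 and at 6.35, 3.68 and 21.7 TPM in Ly86 tumors 2 to 4. It was at 0.11 and 2.81 TPM in the pieces of Vector tumor 1, 36.7 and 0 TPM in those of Vector tumor 2, and 4.81 TPM in Vector tumor 3. The groups overlapped in the same way as for Mcpt4.

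Tpsb2, which encodes the tryptase mMCP-6, was at 8.81 and 14.3 TPM in the pieces of Ly86 tumor 1 and at 5.01, 3.96 and 11.6 TPM in Ly86 tumors 2 to 4. It was at 0.22 and 1.66 TPM in the pieces of Vector tumor 1, 34.7 and 0 TPM in those of Vector tumor 2, and 6.90 TPM in Vector tumor 3. Vector tumor 3 lay above Ly86 tumors 2 and 3 for this gene. Cpa3, mast cell carboxypeptidase A, was the lowest of the 4, at 4.75 and 7.60 TPM in the pieces of Ly86 tumor 1 and 2.95, 2.27 and 9.52 TPM in Ly86 tumors 2 to 4. It was at 0 and 1.02 TPM in the pieces of Vector tumor 1, 19.8 and 0.08 TPM in those of Vector tumor 2, and 2.93 TPM in Vector tumor 3. For all 4 genes the first piece of Vector tumor 2 was the highest library, and Ly86 tumor 3 was the lowest library of the Ly86 group.

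**Figure D1:**
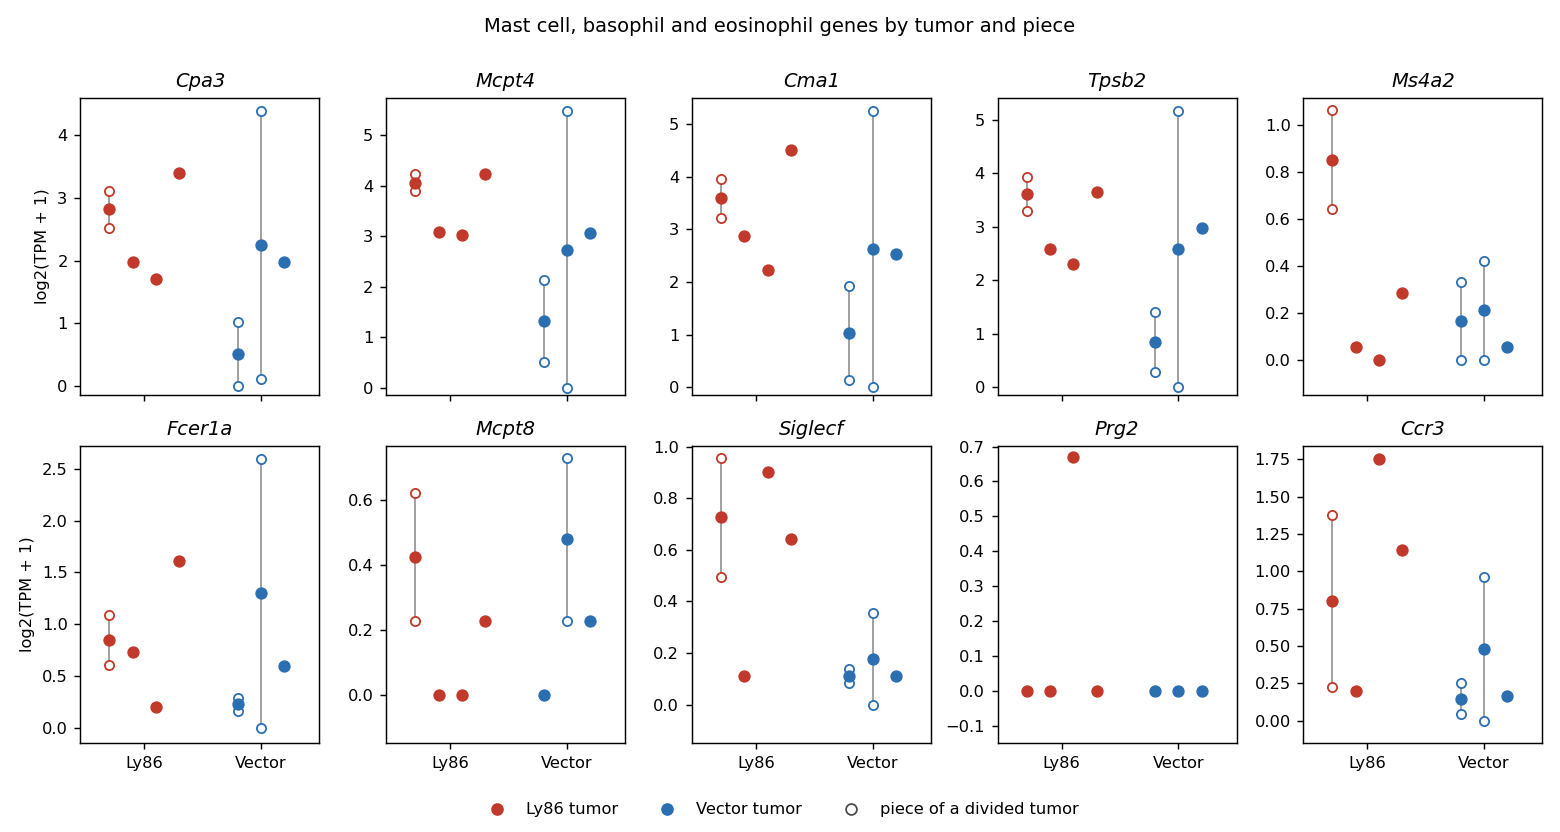
log2(TPM + 1) of the 10 genes, with Ly86 tumors on the left and Vector tumors on the right of each panel. Filled points are tumors, and open points joined by a line are the pieces of a divided tumor. For the 4 mast cell proteases the pieces of Vector tumor 2 span more than all tumors together, as with Mcpt4 at 43.5 and 0 TPM.

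The 4 transcripts were compared as shares of their sum, and these shares varied between libraries. Over the 8 libraries in which they summed to more than 1 TPM, Cpa3 made up 11.5% to 15.7% of the sum, Tpsb2 18.7% to 31.4%, Cma1 21.0% to 35.8% and Mcpt4 27.6% to 44.8%. The highest and the lowest of these Mcpt4 shares were those of the first and the second piece of Ly86 tumor 1. Mcpt4, Cma1 and Mcpt8 lie on mouse chromosome 14 in a cluster of related protease genes, Cpa3 on chromosome 3 and Tpsb2 on chromosome 17. Reads of related genes can be assigned to the wrong member. In GENCODE M21 transcripts, 5.48% of the 50-base words of Mcpt4 also occurred in another gene, Cma2, which itself was at no more than 0.15 TPM here. For Cma1 the share was 5.38%, with the predicted gene Gm48934 as the partner, and for Tpsb2 and Cpa3 no word was shared. The second tryptase gene, Tpsab1, reached at most 0.73 TPM, and Mcpt2 and Cma2 were listed at 0 in 9 and 8 of 10 libraries.

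The promoters of 3 of these proteases are shown, and whether these promoters bear on the shared pattern was not tested. They are the 250 bases before the RefSeq start, on GRCm38.p6, which is not the build of the deposited values, and they were matched by symbol. Cpa3 is at chr3:20242182-20242431, Mcpt4 at chr14:56062311-56062560 and Cma1 at chr14:55944676-55944925, all on the minus strand. Capitals mark each match, on either strand, to the letters GATA with T or A just before and A or G just after, which the GATA factors of mast cells and eosinophils can bind.
Cpa3: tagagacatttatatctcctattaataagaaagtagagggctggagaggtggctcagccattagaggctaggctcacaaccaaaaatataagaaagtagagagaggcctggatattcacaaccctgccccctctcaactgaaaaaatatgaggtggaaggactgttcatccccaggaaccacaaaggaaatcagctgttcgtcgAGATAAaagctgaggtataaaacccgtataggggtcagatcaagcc
Mcpt4: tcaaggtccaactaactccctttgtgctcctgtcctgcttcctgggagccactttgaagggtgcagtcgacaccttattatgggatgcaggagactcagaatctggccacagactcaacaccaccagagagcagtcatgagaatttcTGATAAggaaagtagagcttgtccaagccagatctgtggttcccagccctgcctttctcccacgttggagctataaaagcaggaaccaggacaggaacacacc
Cma1: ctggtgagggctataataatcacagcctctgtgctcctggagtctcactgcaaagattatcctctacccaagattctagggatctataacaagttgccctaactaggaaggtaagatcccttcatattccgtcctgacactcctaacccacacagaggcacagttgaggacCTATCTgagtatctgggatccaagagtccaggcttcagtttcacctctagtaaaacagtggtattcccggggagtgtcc
The match in Cpa3 was AGATAA, 46 bases before the start, and that in Mcpt4 was TGATAA, 103 bases before it. In Cma1 it was AGATAG on the other strand, beginning 79 bases before the start. Of the 10 genes 8 had a promoter in the table, and 6 of these 8 held at least 1 match, against 26.5% of all 32851 promoters. The letters are common, so a match is a description of the sequence and not a site shown to be used.

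No gene of the 10 passed the test between Ly86 and Vector tumors. Mcpt4 averaged 3.60 ± 0.64 log2(TPM + 1) in Ly86 tumors (SD, n = 4) and 2.37 ± 0.93 in Vector tumors (SD, n = 3), a difference of 1.23 (SE 0.48, limma adjusted p = 0.449). Of the 4 Ly86 tumors, 3 lay above every Vector tumor, and the fourth, Ly86 tumor 3 at 3.03, lay just below Vector tumor 3 at 3.06. Cma1 averaged 3.30 ± 0.98 in Ly86 tumors and 2.07 ± 0.89 in Vector tumors, a difference of 1.23 log2 units (SE 0.58, limma adjusted p = 0.491). Tpsb2 averaged 3.04 ± 0.70 in Ly86 tumors and 2.14 ± 1.13 in Vector tumors, a difference of 0.91 (SE 0.56, adjusted p = 0.587 in limma). Cpa3 averaged 2.48 ± 0.77 in Ly86 tumors and 1.58 ± 0.93 in Vector tumors, a difference of 0.90 (SE 0.53, adjusted p = 0.570 in limma). In limma, which pools the spread across genes, 0 of the 4 tested genes passed an adjusted p of 0.05, and 0 of all 14556 tested genes did, 0%. Ly86, the overexpressed gene, did not pass either, at a difference of 1.69 (SE 0.40, limma adjusted p = 0.437). A gene that did not pass is thus not shown to be equal between the groups. At an unadjusted p under 0.05 there was 1 of the 4, Mcpt4, where 10.8% of all tested genes reached that level. The median difference of the 4 was 1.07, against -0.04 over all tested genes. Of the 10 genes, 0 had groups that did not overlap, where 6.76% of all 27919 genes had such groups in either direction. Among tested genes alone, 4.71% had every tumor with Ly86 above, and 5.75% below, every Vector tumor. The mean was higher in Ly86 tumors for 4 of the 4 tested genes and for 43.8% of all tested genes. It was higher for 9 of the 10 genes, but these include genes below the filter, such as Prg2, above 0 in only 1 library. In bulk tissue, fewer mast cells and less RNA per mast cell cannot be told apart.

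These differences moved with the pseudocount and with which tumors and pieces entered. With a pseudocount of 0.1 they were 2.01 for Mcpt4, 2.17 for Cma1, 1.76 for Tpsb2 and 1.87 for Cpa3. Without Vector tumor 1 they were 0.70 for Mcpt4, 0.72 for Cma1, 0.26 for Tpsb2 and 0.37 for Cpa3. Restricted to first pieces, the differences were 0.62, 0.56, 0.15 and 0.28 for these genes as ordered above. Restricted to second pieces, they were 1.83, 1.90, 1.66 and 1.51. With Vector tumor 2 represented by its second piece alone, they were 2.14, 2.11, 1.77 and 1.61. Over the 21 alternative settings each of the 4 stayed above 0, and the smallest adjusted p of any was 0.111, for Cma1 with limma's array weights.

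**Figure D2:**
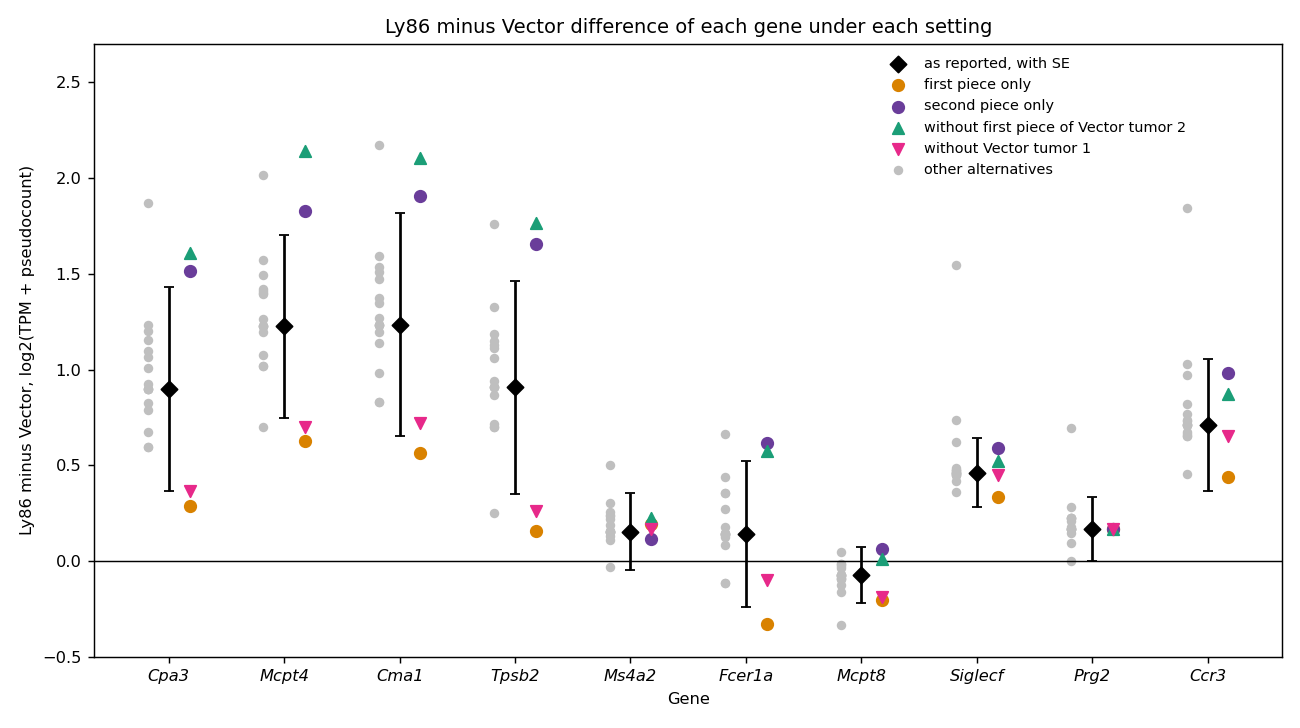
Difference between Ly86 and Vector tumors in log2(TPM + pseudocount) for each gene. Black diamonds are the values reported, with the SE of the limma fit (of the fit without a filter for the 6 genes below a mean of 1 TPM), and other symbols are alternative settings. The mast cell proteases range widely, as Tpsb2 does with 0.15 for the first pieces alone and 1.77 with Vector tumor 2 represented by its second piece.

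The largest contrast in mast cell transcripts lay inside a single tumor. The 4 proteases summed to 135 TPM in the first piece of Vector tumor 2 and 0.08 TPM in the second. Measured as the difference between these pieces, Mcpt4 ranked 48th of 14556 tested genes with 5.47 log2 units, Cma1 61st with 5.24, Tpsb2 67th with 5.16 and Cpa3 145th with 4.27. The pieces of Ly86 tumor 1 held sums of 39.6 and 50.4 TPM, and those of Vector tumor 1 held 0.76 and 8.86 TPM. These pieces are no replicates of a condition, so the contrasts have no test.

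Markers of skin and stroma differed between the same pieces. In the first and second piece of Vector tumor 2, dermal fibroblast markers summed to 2838 and 72.0 TPM, adipocyte markers to 70.6 and 0 TPM, endothelial markers to 165 and 21.1 TPM, and leukocyte markers to 765 and 80.0 TPM. All 4 keratinocyte markers and all 3 adipocyte markers were listed at 0 in the second piece, and the keratinocyte sum in the first was 630 TPM. In Ly86 tumor 1 the keratinocyte sum was 2323 TPM in the first piece and 75.0 TPM in the second, while the mast cell sum was slightly lower in the first piece. Across libraries the fibroblast sum was 608 to 1575 TPM in Ly86 tumors and 72.0 to 2838 TPM in Vector tumors, and the leukocyte sum was 242 to 543 TPM in Ly86 tumors and 49.1 to 765 TPM in Vector tumors. Averaged over tumors, 6 of 6 fibroblast markers were higher in Ly86 tumors with groups that did not overlap, at a median difference of 1.90. Among all tested genes, 4.71% had every Ly86 tumor above every Vector tumor. All 4 leukocyte markers were higher in mean, 1 of them without overlap, at a median of 1.18. Both medians exceeded the 1.07 of the 4 proteases, and 0 markers of either list passed in limma. At an unadjusted limma p under 0.05 there were 6 of 6 and 3 of 4, where 10.8% of all tested genes reached that level. The other lists of this paragraph did not rise in the same way. Of the endothelial markers 2 of 3 were higher in mean, at a median of 0.10. Adipocyte markers had 1 of 3 higher, at a median of -0.0048, and keratinocyte markers 0 of 4, at a median of -0.86. The part of these tissues in the mast cell values was not tested.

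Set against other cell markers, the mast cell transcripts overlapped between the groups as well. For every 100 TPM of Ptprc, which encodes the pan-leukocyte antigen CD45, the 4 proteases held 110, 80.7, 49.6, 75.2 and 144 TPM in the Ly86 libraries, in order of tumor and piece. The Vector libraries held 22.3, 136, 184, 1.15 and 87.1 TPM in the same order. For every 100 TPM of the dermal fibroblast sum they held 1.65 to 5.36 TPM in Ly86 libraries and 0.111 to 4.76 TPM in Vector libraries. The 2 libraries with the fewest mast cell transcripts, namely piece 1 of Vector tumor 1 with piece 2 of Vector tumor 2, were also lowest on both ratios.

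**Figure D3:**
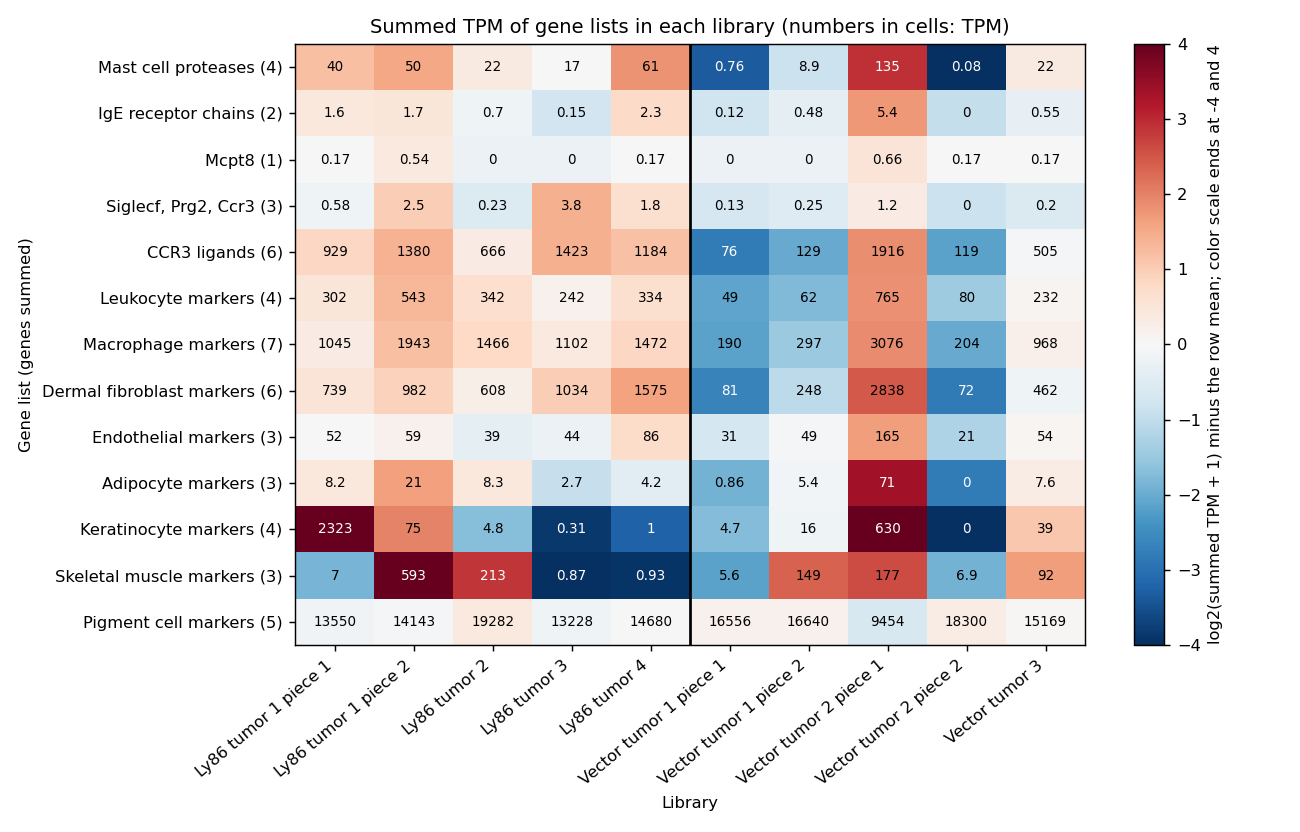
Summed TPM of gene lists (rows) in each library (columns), Ly86 libraries left of the line and Vector libraries right of it. Colors show log2(summed TPM + 1) minus the row mean, and cells print the TPM. Mast cell proteases are highest in the first piece of Vector tumor 2 (135 TPM) and lowest in its second piece (0.08 TPM), as are dermal fibroblast, adipocyte and endothelial markers.

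The genes closest in pattern to each tested protease were ranked by their distance from it. Likeness was the root mean square difference of log2(TPM + 1), each gene centered on its own mean, over 10 libraries that include pieces of the same tumors. For Cma1 the 3 nearest of all tested genes were Tpsb2 at 0.35, Cpa3 at 0.36 and Mcpt4 at 0.37, where the median over all tested genes was 1.64. For Mcpt4 they were Tpsb2 at 0.32, Gas6, a ligand of the TAM receptors, at 0.33, and Fbln2, the matrix protein fibulin 2, at 0.37. For Tpsb2 they were the matrix gene Abi3bp at 0.26, Cpa3 at 0.32 and Bgn at 0.32. For Cpa3 they were the matrix proteoglycan gene Bgn at 0.22, Slit3 at 0.28 and Abi3bp at 0.29. Bgn was at 236, 276, 145, 178 and 366 TPM in the Ly86 libraries, and at 37.9 and 87.3 TPM in the pieces of Vector tumor 1, 958 and 37.7 TPM in those of Vector tumor 2 and 183 TPM in Vector tumor 3. It peaked with Cpa3 in the first piece of Vector tumor 2, and was low with it in the second piece and in Vector tumor 1.

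For the receptor for immunoglobulin E, 2 of its chains are given here, and its signaling chain, Fcer1g, is given below. Fcer1a, the chain that binds the antibody, was at 0.52 and 1.13 TPM in the pieces of Ly86 tumor 1 and 0.66, 0.15 and 2.05 TPM in Ly86 tumors 2 to 4. It was at 0.12 and 0.22 TPM in the pieces of Vector tumor 1, 5.04 and 0 TPM in those of Vector tumor 2 and 0.51 TPM in Vector tumor 3, with the highest and the lowest library again the pieces of Vector tumor 2. Ms4a2, the beta chain that amplifies the signal, was highest in Ly86 tumor 1, at 1.09 and 0.56 TPM in its pieces, and at 0.04, 0 and 0.22 TPM in Ly86 tumors 2 to 4. It was at 0 and 0.26 TPM in the pieces of Vector tumor 1, 0.34 and 0 TPM in those of Vector tumor 2 and 0.04 TPM in Vector tumor 3. In limma without a filter, Fcer1a differed by 0.14 (SE 0.38, adjusted p = 0.931) and Ms4a2 by 0.15 (SE 0.20, adjusted p = 0.845). The sign for Fcer1a turned without Vector tumor 1, at -0.10, without Ly86 tumor 4, at -0.11, and with the first pieces alone, at -0.33. For Ms4a2 it turned without Ly86 tumor 1, at -0.03.

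Other genes of this receptor's signal are shared with macrophages and lymphocytes. Of 16 signaling genes, all tested, 0 passed in limma in either direction, and 12 were higher and 4 lower in mean, with a median difference of 0.63. Fcer1g, the signaling chain that Fc gamma receptors also use, was at 249 to 427 TPM in Ly86 libraries and 35.3 to 734 TPM in Vector libraries and differed by 1.28 (SE 0.53, adjusted p = 0.455). The kinase gene Btk differed by 0.93 (SE 0.30) and Inpp5d, the phosphatase SHIP-1 that restrains degranulation, by 0.87 (SE 0.29), each with an adjusted p of 0.437. Ptpn6, the phosphatase SHP-1, differed by 0.51 (SE 0.29, adjusted p = 0.560). Macrophage markers, which share these transcripts, summed to 1045 to 1943 TPM in Ly86 libraries and 190 to 3076 TPM in Vector libraries. Their part in these values was not tested.

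The basophil member was near the lower end of measurement. Mcpt8, a protease that marks mouse basophils, was at 0.17 and 0.54 TPM in the pieces of Ly86 tumor 1, 0 TPM in Ly86 tumors 2 and 3 and 0.17 TPM in Ly86 tumor 4. It was at 0 TPM in both pieces of Vector tumor 1, 0.66 and 0.17 TPM in those of Vector tumor 2 and 0.17 TPM in Vector tumor 3. Both groups held libraries at 0, and Mcpt8 was the only one of the 10 genes with a lower mean in Ly86 tumors, by -0.07 log2 units (SE 0.15, adjusted p = 0.905 in limma without a filter). Among the 6 other basophil genes, 2 entered the test and 0 passed. Il3ra, the interleukin 3 receptor chain, was at 35.8 to 57.8 TPM in Ly86 libraries and 23.0 to 43.9 TPM in Vector libraries, a difference of 0.48 (SE 0.22, adjusted p = 0.485). In the pieces of Vector tumor 2, Il3ra was at 43.9 and 41.9 TPM, where Ptprc was at 73.05 and 6.98 TPM. Whether basophils were the source of Il3ra was not tested. Itga2b, an integrin of platelets, mast cells and basophils, differed by -0.16 (SE 0.34, adjusted p = 0.907).

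The eosinophil members followed another order of libraries than the mast cell proteases. Ccr3, the eotaxin receptor, was at 0.17 and 1.60 TPM in the pieces of Ly86 tumor 1 and 0.15, 2.37 and 1.21 TPM in Ly86 tumors 2 to 4. It was at 0.03 and 0.19 TPM in the pieces of Vector tumor 1, 0.95 and 0 TPM in those of Vector tumor 2 and 0.12 TPM in Vector tumor 3. Its highest library was Ly86 tumor 3, which was seventh of 10 for each protease. Siglecf, a sialic acid receptor of eosinophils that alveolar macrophages also carry, was at 0.41 and 0.94 TPM in the pieces of Ly86 tumor 1 and 0.08, 0.87 and 0.56 TPM in Ly86 tumors 2 to 4. It was at 0.10 and 0.06 TPM in the pieces of Vector tumor 1, 0.28 and 0 TPM in those of Vector tumor 2 and 0.08 TPM in Vector tumor 3. Ly86 tumor 2 lay within the Vector range for both genes. Prg2 was listed at 0.59 TPM in Ly86 tumor 3 and at 0 in the other 9 libraries.

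Averaged over tumors, Ccr3 was 0.98 ± 0.65 log2(TPM + 1) in Ly86 tumors (SD, n = 4) and 0.26 ± 0.19 in Vector tumors (SD, n = 3), a difference of 0.71 (SE 0.35, adjusted p = 0.712 in limma without a filter). Siglecf was 0.60 ± 0.34 in Ly86 tumors and 0.13 ± 0.04 in Vector tumors, a difference of 0.46 (SE 0.18, adjusted p = 0.667 in the same limma fit). For each of the pair, 3 of 4 Ly86 tumors lay above every Vector tumor, and the two-sided exact permutation p was 0.114, where the smallest possible is 0.0286. Without the filter, 0 of the 10 genes and 0% of 27919 genes passed in limma. At an unadjusted p under 0.05 there were 2 of the 10, Mcpt4 and Siglecf, where 7.22% of all genes reached that level. Both differences were larger with a pseudocount of 0.1, at 1.84 for Ccr3 and 1.54 for Siglecf.

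**Figure D4:**
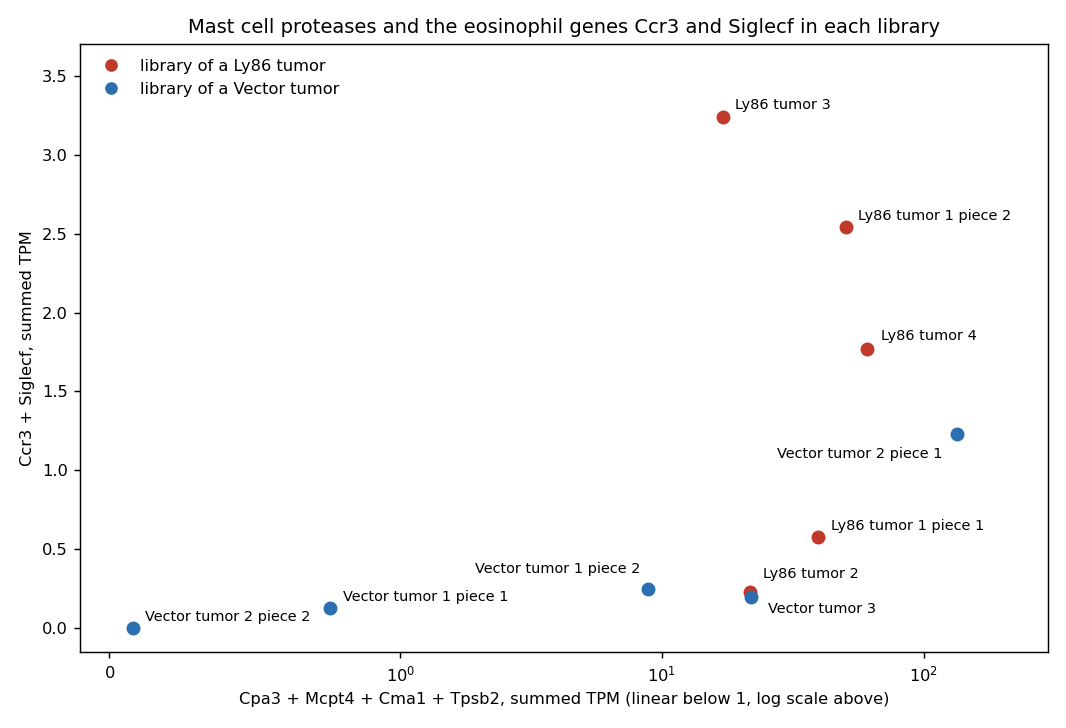
Summed TPM of the 4 mast cell proteases (horizontal, linear below 1 and logarithmic above) against summed TPM of Ccr3 and Siglecf (vertical) in each library. Ly86 tumor 3 holds the highest eosinophil sum, 3.24 TPM, with 17.1 TPM of mast cell proteases, and the first piece of Vector tumor 2 holds 1.23 TPM with 135 TPM.

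The promoters of Ccr3 and Siglecf are shown as well. They lie on the plus strand of GRCm38.p6, Ccr3 at chr9:124021721-124021970 and Siglecf at chr7:43351091-43351340, with the same letters in capitals.
Ccr3: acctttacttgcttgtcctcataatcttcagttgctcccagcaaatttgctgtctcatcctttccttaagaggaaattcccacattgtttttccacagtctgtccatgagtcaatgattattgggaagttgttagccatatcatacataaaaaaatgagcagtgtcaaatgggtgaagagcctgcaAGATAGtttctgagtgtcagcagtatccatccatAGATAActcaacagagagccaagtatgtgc
Siglecf: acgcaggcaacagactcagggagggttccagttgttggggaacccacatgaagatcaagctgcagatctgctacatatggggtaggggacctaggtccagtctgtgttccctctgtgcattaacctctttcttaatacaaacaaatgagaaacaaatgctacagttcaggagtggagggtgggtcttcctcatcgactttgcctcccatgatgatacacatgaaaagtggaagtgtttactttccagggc
Ccr3 held 2 matches, 64 and 30 bases before the start, and 2 or more occurred in 6.4% of all promoters. Of the members whose promoters are not shown, Ms4a2 held 3, Fcer1a 1 and Mcpt8 0. These letters are not in the window of Siglecf.

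Of the 9 other eosinophil genes listed, 5 had values, 2 were tested and 0 passed in limma. Gata1, Cebpe and Il5ra lay below the filter, and their groups overlapped. Ear2, an eosinophil ribonuclease that monocytes and macrophages also express, was at 3.74 and 16.0 TPM in the pieces of Ly86 tumor 1 and 4.85, 17.3 and 12.1 TPM in Ly86 tumors 2 to 4. It was at 0.79 and 2.56 TPM in the pieces of Vector tumor 1, 8.59 and 0.66 TPM in those of Vector tumor 2 and 2.54 TPM in Vector tumor 3. As with Ccr3, Ly86 tumor 3 was its highest library. Its 4 Ly86 tumors lay above the 3 Vector tumors, as in 4.71% of all tested genes. The difference was 1.69 (SE 0.38, limma adjusted p = 0.437). Alox15, a lipoxygenase of eosinophils and resident macrophages, was at 0.45 to 3.12 TPM in Ly86 libraries and 0 to 1.55 TPM in Vector libraries and differed by 0.93 (SE 0.39, adjusted p = 0.456 in limma). The alveolar macrophage list, in which Krt79 is also a skin keratin, had 2 of 4 genes higher and a median of 0.30, with Car4 at its highest, 19.3 TPM, in Ly86 tumor 3. The macrophage list had 7 of 7 genes higher in mean, 4 without overlap, against the same 4.71% of all tested genes, and a median of 1.25. Neutrophil markers had 4 of 4 tested genes higher in mean and a median of 1.01. The part of these cells in the eosinophil values was not tested.

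The chemokines listed here as CCR3 ligands averaged higher in Ly86 tumors without passing the test. Whether each of them binds the mouse receptor was not examined. Of 6 listed genes, 5 were tested, 5 were higher in mean with a median difference of 1.87, and 0 passed in limma. The groups did not overlap for 4 of the 5, all higher with Ly86, where 4.71% of all tested genes were so placed. The same held for 6 of 6 dermal fibroblast markers, at a median of 1.90, and 4 of 7 macrophage markers, at a median of 1.25, and the part of these cells in the ligand values was not tested. Ccl8 was at 709, 1097, 442, 1105 and 857 TPM in the Ly86 libraries, and at 37.0 and 97.9 TPM in the pieces of Vector tumor 1, 1651 and 67.5 TPM in those of Vector tumor 2 and 379 TPM in Vector tumor 3. Ccl7 was at 69.9 to 186 TPM in Ly86 libraries and 9.21 to 64.4 TPM in Vector libraries, which do not overlap, and Ccl5 at 76.6 to 147 TPM and 13.0 to 137 TPM in the same order of groups. The eotaxin gene Ccl11, named after its values were seen, was at 6.84, 32.6, 12.8, 46.7 and 35.3 TPM in the Ly86 libraries. It was at 1.00 and 2.68 TPM in the pieces of Vector tumor 1, 60.8 and 0.94 TPM in those of Vector tumor 2 and 9.64 TPM in Vector tumor 3. Within Ly86 libraries, the 3 highest for Ccl11 were also the 3 highest for Ccr3, while the highest library of all for Ccl11 was the first piece of Vector tumor 2.

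Growth factors and alarmins of these cells included 2 tested genes, both higher in mean, and 0 passed in limma. Il33, an alarmin of stromal cells that activates mast cells, was at 12.3 to 33.7 TPM in Ly86 libraries and 3.05 to 58.7 TPM in Vector libraries and differed by 1.33 (SE 0.46, adjusted p = 0.440). Its receptor gene Il1rl1 was at 2.64 to 5.70 TPM in Ly86 libraries and 0.04 to 4.06 TPM in Vector libraries and differed by 1.45 (SE 0.32, limma adjusted p = 0.437). Kitl, the stem cell factor that mast cells need to survive, was at 3.85 to 5.61 TPM in Ly86 libraries and 1.17 to 7.19 TPM in Vector libraries and differed by 0.30 (SE 0.18, adjusted p = 0.573). Among 9 cytokine and prostaglandin receptors, 7 were tested, 7 were higher in mean and 0 passed in limma, with a median of 0.73. Il4ra, Csf2ra and Crlf2, receptor chains for interleukin 4, GM-CSF and TSLP, differed by 0.73 (SE 0.46), 0.50 (SE 0.32) and 0.70 (SE 0.36).

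Genes of mast cell mediators were mostly ones that other leukocytes use. Of 7 such genes 6 were tested, with 4 higher and 2 lower in mean, a median of 1.00 and 0 passing in limma. Ltc4s, the leukotriene C4 synthase, was at 1.07 and 8.67 TPM in the pieces of Ly86 tumor 1 and 10.2, 14.2 and 8.50 TPM in Ly86 tumors 2 to 4. It was at 0.80 and 0.66 TPM in the pieces of Vector tumor 1, 6.42 and 0 TPM in those of Vector tumor 2 and 0.70 TPM in Vector tumor 3, a difference of 2.21 (SE 0.41, adjusted p = 0.409 in limma). Alox5ap, the partner of 5-lipoxygenase, differed by 1.36 (SE 0.54, adjusted p = 0.453), and Srgn, the proteoglycan core of granules in many leukocytes, by 1.35 (SE 0.57, adjusted p = 0.456). Hdc, the histamine-forming enzyme, named after its values were seen, was at 0.54 to 4.11 TPM in Ly86 libraries and at 17.98 TPM in the first piece of Vector tumor 2, against 0.30 to 1.40 TPM in the other Vector libraries. Hdc differed by -0.32 (SE 0.51, adjusted p = 0.865 in limma). Hpgds, the other tested gene lower in mean and also named after its values were seen, differed by -0.33 (SE 0.14, adjusted p = 0.463 in limma).

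Some regulators and receptors of mast cells are shared with melanoma or vessels. Kit, the stem cell factor receptor of mast cells and pigment cells, was at 12.4 to 20.7 TPM in Ly86 libraries and 15.4 to 43.4 TPM in Vector libraries and differed by -0.48 (SE 0.22, adjusted p = 0.479 in limma). Mitf, a factor of both lineages, was at 158 to 283 TPM in Ly86 libraries and 111 to 282 TPM in Vector libraries and differed by -0.04 (SE 0.29, adjusted p = 0.979 in limma). Gata2, a factor of mast cells that endothelium also expresses, was at 1.43 to 2.75 TPM in Ly86 libraries and 2.48 to 6.05 TPM in Vector libraries. It differed by -0.78 (SE 0.26, limma adjusted p = 0.437) and was the 1 tested gene among 13 other mast cell genes, of which 11 had values. Adora3, the adenosine A3 receptor, lay below the filter at 0.78 to 1.26 TPM in Ly86 libraries and 0 to 0.75 TPM in Vector libraries. All 4 Ly86 tumors were above every Vector tumor, where 6.76% of all genes had groups without overlap in either direction. Adora3 differed by 0.64. The other genes of this list below the filter differed by -0.03, for Mcpt2, to 0.18, for Rab27b, and did not separate the groups. Mrgprb2, the mast cell receptor for basic secretagogues, reached 0.44 TPM at most and was listed at 0 in 4 libraries.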

How the data were processed

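RNA was sequenced from 10 libraries of 7 tumors, 4 Ly86 and 3 Vector. The submitters' processing notes name STAR 2.7.10b, RSEM 1.3.3 and mm39. Values were deposited as log2(TPM + 1), for 27919 symbols. The scale was read from the values: 99.9% gave hundredths of a TPM within 1e-04 hundredths, and libraries summed to 994679 to 996446 TPM. The annotation and the treatment of repeated symbols are not given in the sources used here. Depth is unknown, so no counting interval is given.

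Libraries of the same tumor were averaged on the log2 scale. The labels do not say that each tumor came from a separate mouse, so p-values reflect only how these tumors varied, which may be technical. Groups were compared with limma 3.58.1, run in R 4.3.3 (lmFit, eBayes with trend), over 14556 genes with a mean of at least 1 TPM over tumors, calling an adjusted p (Benjamini-Hochberg) under 0.05, and the fit was tested on simulated data. Single genes were compared by an exact permutation test over 35 assignments. No batch is given in the labels. Same-numbered tumors were not paired by any label. The members and lists were chosen with earlier results of these data known. The design had assumed TPM, and log2(TPM + 1) values needed no other test.

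The text names the 10 members, then for each list of related genes the 2 with the smallest unadjusted p and the 2 with the highest mean TPM, and the 3 genes nearest in pattern to each tested member. Promoters came from RefSeq (GRCm38.p6), and shared 50-base words from GENCODE transcripts. The alternatives were other pseudocounts, filters, scalings and variance models, other uses of the pieces, a replicate block, and fits lacking 1 tumor each. Plots used matplotlib 3.10.9 (Python 3.11.15).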

Additional observations from a re-analysis of the deposited data

Results flagged for a closer look

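Prg2, the eosinophil major basic protein gene, stood apart in 1 of the 4 Ly86 tumors. Ly86 tumor 3 was at 0.67 log2(TPM + 1) and the other 3 at 0, so the gap to the nearest tumor was the whole range of the group, a ratio of 1, above Dixon's critical value for 4 samples. Such a gap is met by chance in about 1 of 20 groups, and a gene listed at 0 in all tumors but 1 meets it by construction. Of the 10 genes examined, 1 was flagged in this way, and the groups of 3 Vector tumors were too small to examine.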

How the results depend on the processing

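In the reported limma fit and its 21 alternatives, 0 of the genes tested among the 10 passed. That was 4 genes as reported, 10 without a filter and 3 to 5 elsewhere. Over all tested genes the count was 0 in the reported fit, 1832 with array weights, where the fit gave Vector tumor 3 a weight of 22.8 and stopped before it had converged, 37 with the second pieces alone, 3 without the first piece of Vector tumor 2, 1 with the first pieces alone and 0 to 2 when single tumors were left out. Groups that did not overlap were found for 0 of the 10 genes as reported, for 1, Mcpt4, with median-of-ratios scaling and 1, Mcpt4, with quantile normalization, for 1, Ccr3, when the first piece of Vector tumor 2 was left out, and for 0 to 2 without single tumors. Among all 27919 genes the share without overlap was 6.76% as reported, 7.24% and 7.56% with these scalings, 11.9% when that piece was left out and 9.19% to 19.3% without single tumors. The genes were Siglecf and Ccr3 without Ly86 tumor 2 (10.3% of all genes), Mcpt4 and Cma1 without Ly86 tumor 3 (11.8%), Ccr3 without Vector tumor 2 (19.3%) and Mcpt4 without Vector tumor 3 (10.4%), and leaving out a tumor that lay in the other group's range gives such a result by construction. The cause of these changes was not tested.

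With the tumor number as a replicate block, 0 of the 4 members tested and 0 of all tested genes passed, and 645 genes had an unadjusted p under 0.05, against 1565 without the block. Deviations of same-numbered tumors correlated at -0.17, -0.11 and -0.31, and those of differently numbered tumors at -0.22 to 0.35. Deviations were taken from the means of small groups, so these values cannot show whether the tumors were paired. The differences of Siglecf and Ccr3 stayed above 0 in all 21 alternatives, at 0.34 to 1.54 and 0.44 to 1.84. The sign of Fcer1a turned in 4, that of Mcpt8 in 3 and that of Ms4a2 in 1. The number of reads behind levels under 1 TPM is unknown.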

Other observations

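Cytokines that drive these cells were low, and they are named here after their values were seen. Il3, a growth factor of mast cells and basophils, was listed at 1.33 TPM in the first piece of Vector tumor 2 and at 0 in the other 9 libraries. Il5, the growth factor of eosinophils, was at 0.21, 0, 0.35, 0.32 and 0.29 TPM in the Ly86 libraries and at 0 to 0.07 TPM in the Vector libraries, a difference of 0.26 log2 units (SE 0.08, adjusted p = 0.664 in limma without a filter). Il4 was at 0 to 1.14 TPM in Ly86 libraries and 0 to 0.95 TPM in Vector libraries, and was listed at 0 in 6 of 10 libraries. Tslp, an epithelial alarmin, was at 0.31 to 1.07 TPM in Ly86 libraries and 0 to 0.53 TPM in Vector libraries, a difference of 0.45 (SE 0.16, adjusted p = 0.664 in the same limma fit). Ccl24, the second mouse eotaxin, was at 0.38 to 8.01 TPM in Ly86 libraries, highest in Ly86 tumor 3 as Ccr3 was, and at 0 to 3.16 TPM in Vector libraries. Rab27b, a granule trafficking gene, was at 2.81 and 1.41 TPM in the pieces of Ly86 tumor 1, at most 0.30 TPM in the other Ly86 tumors, and at 0 to 1.28 TPM in Vector libraries.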
